A study of Homo sapiens with 18 samples.

Results

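The genes described here encode the granins and the prohormone processing enzymes of the dense-core granule, and they were chosen by symbol: CHGA, CHGB, SCG2, SCG3, SCG5, VGF, PCSK1N, PCSK1, PCSK2 and CPE. All 10 had a row in the deposited table, which holds 26372 gene symbols. The table gives FPKM (fragments per kilobase of transcript, scaled to the number of mapped fragments) for 18 RNA-seq libraries of SH-SY5Y, an established human neuroblastoma cell line whose cells can be driven towards a neuronal state. All libraries came from cells given ZNHIT3 with a lentiviral vector derived from the FUGW plasmid, on top of the cells' own ZNHIT3 gene. The construct carried the wild-type sequence (WT), the C14R substitution (C14R) or a short deletion (deletion), and each was sampled at day 0 and at day 18. Each of the 6 groups holds 3 libraries. The deletion is labelled 251-254, 251-255 and 251-256 in replicates 1, 2 and 3, and the study's design text names the first of these. The 3 were kept as 1 group. Per the labels, differentiation lasted 18 days in serum-free medium with 10 μM all-trans retinoic acid, 50 ng/ml BDNF, 2 mM dibutyryl cyclic AMP and 20 mM KCl, so time, medium and each of these agents cannot be told apart. No library without a ZNHIT3 construct was analysed here, and nothing in the labels says that replicates were separate cultures, so the p-values measure the spread between libraries, which may be technical.

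Dense-core granules store peptide hormones, neuropeptides and, in sympathetic cells, catecholamines, and release them on stimulation. Granins are acidic proteins that aggregate in the trans-Golgi network and help to form the granule, and several are themselves cut into peptides. Inside the granule, the prohormone convertases cut precursors after paired basic residues, a carboxypeptidase trims the exposed basic residues, and dedicated binding proteins hold the convertases in check until the granule matures. SH-SY5Y derives from the sympathoadrenal lineage, in which chromogranins are widely used as neuroendocrine markers.

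Levels of ZNHIT3 itself, in which delivered and endogenous transcripts are counted together, at day 0 averaged 538 ± 6.33 FPKM for WT, 424 ± 7.09 for C14R and 302.5 ± 9.4 for the deletion (SD, n = 3). At day 18 they were 1153 ± 46.1, 653 ± 88.9 and 301.5 ± 9.89 FPKM. Of the 17 markers of the sympathetic neuroblastoma line, 16 had a mean of at least 1 FPKM at both days. TH, the rate-limiting enzyme of catecholamine synthesis, was the exception, with group means from 0.0258 to 0.0406 FPKM at day 0 and from 0.535 to 0.709 FPKM at day 18. The steps that single fragments leave in low FPKM values put the day 0 libraries at 59% to 84.2% of the depth of the deepest library and the day 18 libraries at 82% to 100%. Absolute depth is unknown, so no counting interval is given. C14R replicate 1 of day 18 had the lowest mean correlation with its own group (Pearson's r = 0.985 across genes). The C14R count of granule genes past the threshold with day, and the C14R rises of VGF, SCG3 and PCSK1N, are given with and without it.

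The granule genes rose together with differentiation, with CHGA as the exception. Among the 10 genes, 9 were higher in each of the 9 day 18 libraries than in any of the 9 day 0 libraries. Of those 9 genes, 7 passed the expression filter (a mean of at least 1 FPKM over all libraries), and 29.8% of all 13785 genes that passed it were separated in the same direction. Changes were tested with limma on log2(FPKM + 1), with Benjamini-Hochberg adjustment of p over all genes tested and a threshold of 0.05. PCSK1 and PCSK2 failed the filter, so 8 of the 10 genes were tested. All 8 had means above the filter at day 0 as well as at day 18. In WT, 7 of the 8 rose and 1 fell, where 38.2% of all tested genes rose and 34% fell. In C14R the counts were again 7 and 1, against 37.9% and 35%, and without C14R replicate 1 of day 18 all 8 passed as before. In deletion libraries 7 rose and 0 fell, against 38.6% and 34.4%. The median log2 change of the 8 genes was 1.36 in WT, 1.54 in C14R and 1.52 in the deletion group, while the median over all tested genes was 0.03, 0.02 and 0.03. In bulk RNA, fewer cells of a type and less RNA per cell cannot be told apart, so these values do not say how many cells changed.

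**Figure D1:**
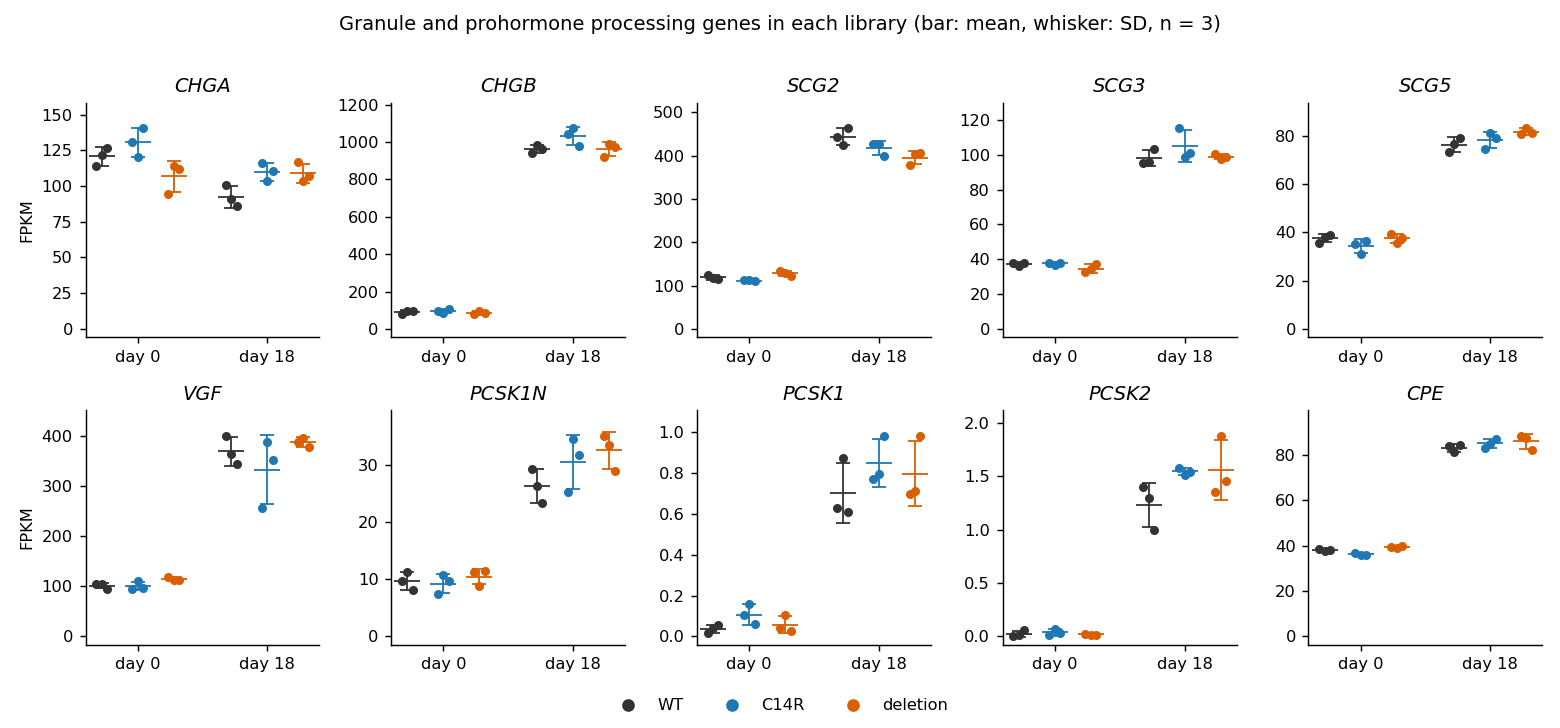
FPKM of each of the 10 genes (vertical axes, linear, 1 scale per gene) in the 18 libraries, grouped by day and coloured by construct. Points are libraries, horizontal bars are group means and whiskers are SDs of 3 libraries. The days do not overlap for 9 genes, with CHGB rising from at most 105 to at least 919 FPKM, and CHGA alone keeps to between 85.9 and 141 FPKM throughout.

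CHGB (chromogranin B, chr20:5911430-5925361, plus strand; gene positions are those of GENCODE 29 on GRCh38) had the largest change of the granins. Its WT libraries read 80.1, 93.9 and 98.4 FPKM at day 0 and 943.8, 982.5 and 961.7 FPKM at day 18. The C14R libraries went from 93.7, 84.4 and 104.7 FPKM to 1044, 1075 and 978 FPKM, and the deletion libraries from 78.5, 94.6 and 86.7 FPKM to 918.8, 990.6 and 973.7 FPKM. Every day 18 library thus stood far above every day 0 library, and the lowest of the former was 8.78 times the highest of the latter. The ratio of the means was 10.6 in WT, 10.9 in C14R and 11.1 in the deletion group. On the log2 scale the rise was 3.40, 3.44 and 3.46 (SE 0.08 each), with limma adjusted p-values of 4.62e-16, 3.75e-16 and 3.37e-16.

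CHGA (chromogranin A, chr14:92923080-92935293, plus strand), the other chromogranin, did not follow it. Its WT libraries read 113.9, 121.9 and 126.9 FPKM at day 0 and 101, 90.9 and 85.9 FPKM at day 18. In C14R it went from 130.7, 120.1 and 140.6 FPKM to 116, 103.6 and 110.3 FPKM, and in deletion libraries from 94.4, 114.1 and 111.9 FPKM to 116.5, 103.3 and 106.9 FPKM. All day 18 libraries lay below all day 0 libraries in WT and in C14R, while the days overlapped in deletion libraries. CHGA fell by 0.38 on the log2 scale in WT (SE 0.08, limma adjusted p = 0.000311) and by 0.24 in C14R (SE 0.08, adjusted p = 0.0105). Its change in the deletion group was 0.03 (SE 0.08, limma adjusted p = 0.734). The C14R call was lost without C14R replicate 3 of day 0 (log2 change -0.19, limma adjusted p = 0.061), and quantile normalization lost it too (-0.16, adjusted p = 0.0839).

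The size of the CHGA change, and which constructs pass the threshold, depend on how the libraries are scaled. Summed FPKM ran from 553539 (C14R replicate 1 of day 18) to 2.22e+06 (WT replicate 1 of day 0), and WT replicate 3 of day 0 had 987586. Leaving out small RNA genes and rescaling the rest moved the median change of all genes to 0.21 in WT, 0.18 in C14R and 0.22 in the deletion group. The calls over all genes in WT moved with it, from 5260 higher and 4686 lower to 7059 higher and 3227 lower. Under that scaling CHGA had a log2 change of -0.18 in WT (limma adjusted p = 0.0429), -0.06 in C14R (adjusted p = 0.496) and 0.25 in deletion libraries (adjusted p = 0.0064). Relative to the shifted median it was thus lower in WT and C14R and at about the median in deletion libraries. The other 7 tested genes kept their rise in all 3 constructs under every scaling tried (median of ratios, quantile and this one). The sizes of their rises moved as well. With quantile normalization the WT rise went from 3.40 to 3.80 for CHGB, from 1.85 to 2.09 for VGF and from 1.36 to 1.34 for PCSK1N.

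SCG2 (secretogranin II, chr2:223596940-223602503, minus strand), the precursor of secretoneurin, had 125.2, 117.7 and 114.4 FPKM in WT at day 0 and 442.4, 425.3 and 464.2 FPKM at day 18. The C14R libraries rose from 112.8, 111.9 and 109.6 FPKM to 426.3, 426.7 and 398.4 FPKM. The deletion libraries rose from 134.9, 128.4 and 122.1 FPKM to 379.4, 403.1 and 405.3 FPKM. The deletion group was thus the highest of the constructs by its mean at day 0 and the lowest at day 18. The log2 rise was 1.89 in WT, 1.89 in C14R and 1.62 in the deletion group (SE 0.05 each), with limma adjusted p-values of 8.24e-16, 7.59e-16 and 5.9e-15.

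VGF (chr7:101162509-101165593, minus strand), a nerve growth factor inducible gene whose product is cut into several neuropeptides, was 105.3, 105.1 and 95.4 FPKM in WT at day 0 and 401.8, 364.5 and 345.3 FPKM at day 18. In C14R it was 95.3, 110.1 and 97.2 FPKM and then 256.9, 389.5 and 353.9 FPKM. In deletion libraries it was 119.4, 113.8 and 112.4 FPKM and then 389, 397.9 and 379.8 FPKM. C14R replicate 1 of day 18 was the lowest of the 9 day 18 libraries and gave its group a coefficient of variation of 20.6%. The log2 rise was 1.85 in WT, 1.70 in C14R and 1.75 in the deletion group (SE 0.11 each, limma adjusted p from 5.27e-11 to 1.76e-10). Without the low library the C14R rise was 1.87 (limma adjusted p = 5.15e-13).

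SCG3 (secretogranin III, chr15:51681353-51721031, plus strand), which ties chromogranin A to cholesterol-rich granule membrane, ranged from 32.4 to 38.1 FPKM at day 0 (median 37.1) and from 95.3 to 115 FPKM at day 18 (median 98.9). It rose by 1.37 in WT, 1.46 in C14R and 1.49 in the deletion group (SE 0.06 each, limma adjusted p from 1.48e-13 to 4.76e-13). Without C14R replicate 1 of day 18 the C14R rise was 1.39 (limma adjusted p = 2.76e-13). The ratio of the means was 2.63, 2.80 and 2.86. The lowest day 18 library was 2.50 times the highest day 0 library.

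The convertases were the rarest transcripts of the set and were close to undetected before differentiation. PCSK1 (PC1/3, chr5:96390415-96434143, minus strand) was 0.0146, 0.0419 and 0.0541 FPKM in WT at day 0 and 0.630, 0.873 and 0.609 FPKM at day 18. In C14R it went from 0.103, 0.160 and 0.0588 FPKM to 0.771, 0.794 and 0.984 FPKM, and in deletion libraries from 0.0401, 0.106 and 0.0264 FPKM to 0.698, 0.714 and 0.985 FPKM. Judged by the steps of single fragments, the day 0 values stand for about 1 to 12.9 fragments per library and the day 18 values for about 58.4 to 91.3. The lowest day 18 library was 3.81 times the highest day 0 library.

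PCSK2 (PC2, chr20:17226107-17484578, plus strand), which acts later in granule maturation than PC1/3, was listed at 0, 0.0145 and 0.0560 FPKM in WT at day 0 and at 1.40, 1.30 and 1.00 FPKM at day 18. In C14R it went from 0.0143, 0.0747 and 0.0304 FPKM to 1.58, 1.51 and 1.54 FPKM, and in deletion libraries from 0.0277, 0.0182 and 0.0133 FPKM to 1.35, 1.88 and 1.45 FPKM. These are about 0 to 6 fragments per library at day 0 and about 95.5 to 159.5 at day 18. Ratios of the day means would rest on those few fragments and are not given. Tested with no expression filter, where 30.2%, 29.1% and 30.2% of 21412 genes rose in WT, C14R and deletion libraries, both convertases rose in all 3 constructs. The log2(FPKM + 1) rise, which is compressed at such low levels, was 0.71, 0.74 and 0.76 for PCSK1 (SE 0.07 each) and 1.12, 1.29 and 1.32 for PCSK2 (SE 0.07 each). The largest limma adjusted p among these 6 tests was 4.22e-07.

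CPE (carboxypeptidase E, chr4:165361194-165498320, plus strand), the enzyme that removes the basic residues left by the convertases, was abundant at both days. WT libraries read 38.7, 37.6 and 37.9 FPKM at day 0 and 83.9, 81.2 and 84.3 FPKM at day 18. In C14R they read 36.9, 36.0 and 35.8 FPKM and then 83.2, 84.8 and 87.0 FPKM, and in deletion libraries 39.6, 38.9 and 39.9 FPKM and then 88.4, 87.2 and 82.2 FPKM. Its replicates lay close together, with coefficients of variation from 1.18% to 3.82% over the 6 groups. The rise was 1.11 in WT, 1.21 in C14R and 1.10 in the deletion group (SE 0.03 each, limma adjusted p from 4.31e-15 to 1.43e-14).

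Each convertase has a small granin-like partner that binds it. SCG5 (7B2, chr15:32641676-32697098, plus strand), chaperone and inhibitor of PC2, ranged from 30.9 to 39.5 FPKM at day 0 (median 36.4) and from 73.1 to 83.2 FPKM at day 18 (median 79.0). It rose by 1.00 in WT, 1.17 in C14R and 1.10 in the deletion group (SE 0.06 each, limma adjusted p from 4.64e-12 to 3.52e-11). Its annotated exons share 11 bases with AC123768.1 on the opposite strand, and the use of strand in counting was not given in the sources used here. PCSK1N (proSAAS, chrX:48831094-48835633, minus strand), an inhibitor of PC1/3, ranged from 7.40 to 11.4 FPKM at day 0 (median 9.78) and from 23.4 to 35.2 FPKM at day 18 (median 29.3). It rose by 1.36, 1.62 and 1.55 (SE 0.14 each, limma adjusted p from 1.50e-08 to 1.52e-07) and was the noisiest of the tested genes at day 0, with coefficients of variation of 13.3% to 18.6%. Without C14R replicate 1 of day 18 the C14R rise of PCSK1N was 1.75 (limma adjusted p = 1.55e-08).

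**Figure D2:**
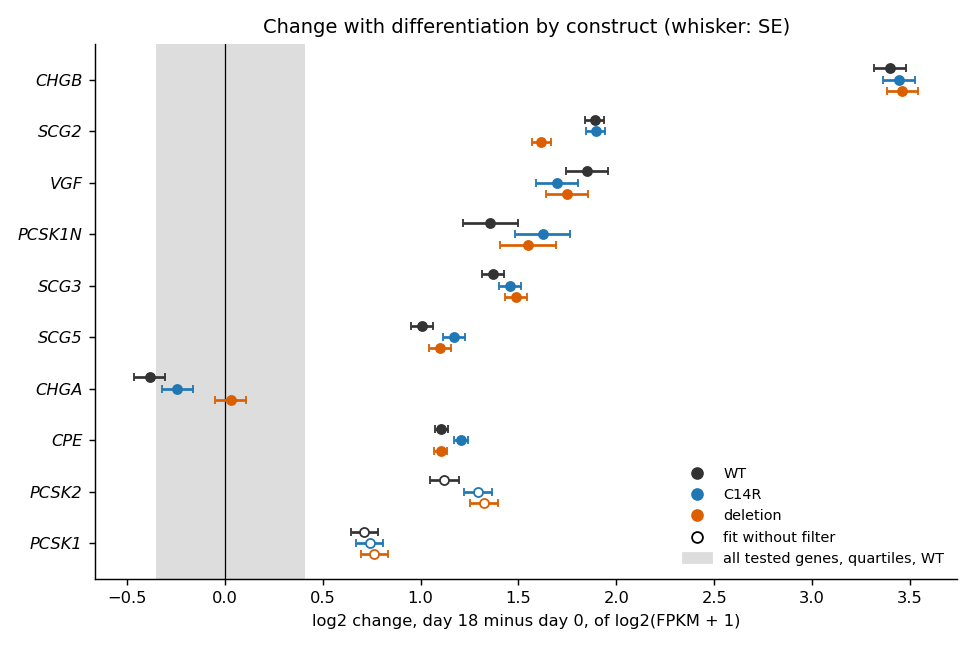
Log2 change from day 0 to day 18 of log2(FPKM + 1) (horizontal axis) for each gene, 1 point per construct, with whiskers for the SE of the limma fit. The grey band spans the quartiles of all tested genes in WT (-0.35 to 0.41), and open points come from the fit without an expression filter. CHGB stands at 3.40 to 3.46, and CHGA is the only gene with points inside the band.

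Because FPKM is scaled to transcript length, levels can be set side by side within a library. The 7 granins (CHGA, CHGB, SCG2, SCG3, SCG5, VGF and PCSK1N) summed to 517 ± 8.36 FPKM in WT at day 0 and 2070 ± 14.1 FPKM at day 18 (SD, n = 3). CHGA held 23.4% ± 1.0 of that sum at day 0 and 4.47% ± 0.343 at day 18, while CHGB went from 17.5% ± 1.62 to 46.5% ± 1.22. SCG2 held 23.0% ± 1.4 and then 21.4% ± 0.962, and VGF 19.7% ± 1.23 and then 17.9% ± 1.27. At day 0 the order in WT was CHGA, SCG2, VGF and CHGB, in which CHGA overlapped SCG2 and VGF overlapped CHGB across libraries. At day 18 it was CHGB, SCG2 and VGF, each clear of the next, followed by SCG3 and CHGA, which overlapped. The other constructs showed the same leading 3 genes at day 18, where CHGB held 49.0% ± 1.56 in C14R and 46.5% ± 0.845 in deletion libraries. SCG2 and VGF overlapped in the deletion group.

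**Figure D3:**
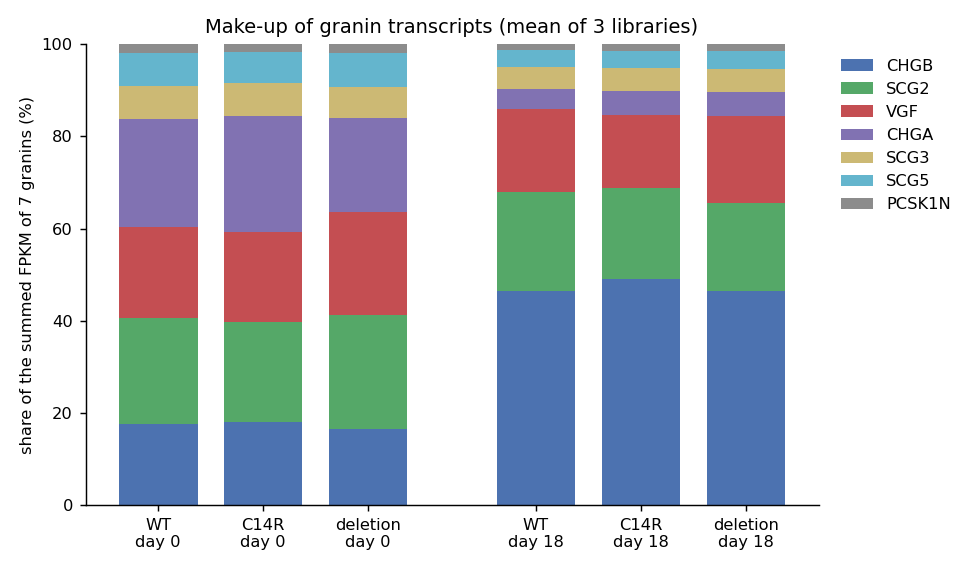
Share of each granin in the summed FPKM of the 7 granins (vertical axis, percent, from 0 to 100), as the mean of 3 libraries in each group. CHGB grows from 17.5% to 46.5% in WT and CHGA shrinks from 23.4% to 4.47%, while SCG2 stays between 19.1% and 24.7% in all 6 groups.

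Ratios within a library do not depend on library scaling. The mean log2 ratio of CHGA to CHGB was 0.42 ± 0.08 in WT, 0.47 ± 0.04 in C14R and 0.30 ± 0.06 in the deletion group at day 0, and it was -3.38 ± 0.14, -3.23 ± 0.13 and -3.14 ± 0.15 at day 18 (SD, n = 3). CHGA was thus the more abundant chromogranin in every day 0 library and the rarer in every day 18 library. CPE stood 3.17-fold below CHGA in WT at day 0 (log2 ratio -1.67 ± 0.10) and 1.11-fold below it at day 18 (-0.15 ± 0.12). At day 18, PCSK2 exceeded PCSK1 by 1.76-fold in WT, 1.83-fold in C14R and 1.96-fold in deletion libraries. The binding partners were far above their enzymes at that day. PCSK1N exceeded PCSK1 by 37.7-fold, 35.9-fold and 41.2-fold in WT, C14R and deletion libraries, and SCG5 exceeded PCSK2 by 62.4-fold, 50.5-fold and 52.9-fold. Ratios with a convertase at day 0 rest on few fragments and are not given.

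Differences between constructs were small beside the change with differentiation, and 0 of the 8 tested genes passed the limma threshold in any of 8 such comparisons. At day 0 the threshold was passed by 0% of all tested genes for C14R against WT, 0.029% for deletion against WT and 0.058% for C14R against deletion. At day 18 the shares were 0.0363%, 0.0725% and 0.029% in the same order. The test of whether the change with day differed from that in WT was passed by 0% of genes for C14R and 0.0145% for deletion. At an unadjusted p under 0.05, the day 0 comparisons held 1 granule gene (SCG5), 2 (CHGA and SCG2) and 4 (CHGA, CPE, SCG2 and SCG5) of 8, where all tested genes gave 2.81%, 6.22% and 9.84%. At day 18 they held 1 (CHGA), 2 (CHGA and SCG2) and 1 (VGF), where all genes gave 11.1%, 11.4% and 11.2%. The differences in change with day held 0 for C14R and 2 (CHGA and SCG2) for deletion, against 5.73% and 7.36% of all genes. ZNHIT3 itself was lower in deletion than in WT at day 0 (log2 difference -0.83, limma adjusted p = 4.46e-06) and at day 18 (-1.93, adjusted p = 1.29e-11). For C14R against WT it differed by -0.34 at day 0 (limma adjusted p = 0.352) and -0.83 at day 18 (adjusted p = 9.18e-06). Construct sequence and ZNHIT3 level thus cannot be told apart in these comparisons.

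CHGA and SCG2 had the lowest unadjusted p among the 8 genes for the difference in change with day between deletion and WT, with opposite signs. At day 18 the 3 CHGA values were higher in both variant groups (103.3 to 116.5 FPKM) than in WT (85.9 to 101 FPKM). The log2 difference was 0.25 for C14R (SE 0.08, limma adjusted p = 0.23) and 0.23 for deletion (SE 0.08, adjusted p = 0.278). The largest difference of the 8 genes between deletion and WT at day 18 was that of PCSK1N, at 0.30 (SE 0.14, limma adjusted p = 0.439), whose libraries overlapped. SCG2 was lower in deletion than in WT at day 18, by a log2 difference of -0.16 (SE 0.05, limma adjusted p = 0.219). The change of CHGA with day was 0.41 higher in deletion than in WT (SE 0.11, unadjusted p = 0.00173, limma adjusted p = 0.336). For SCG2 this difference in change was -0.27 (SE 0.07, unadjusted p = 0.000833, limma adjusted p = 0.305). Day 0 enters both values: there deletion minus WT was -0.18 for CHGA (SE 0.08, limma adjusted p = 0.773) and 0.11 for SCG2 (SE 0.05, adjusted p = 0.775), with libraries overlapping. The libraries of C14R and WT did not overlap at day 18 for 1 of the 8 genes (CHGA), against 11.1% of all tested genes. Those of deletion and WT did not overlap for 3 (CHGA and SCG5 higher, SCG2 lower), against 18.9%. These differences fail the correction over all genes.

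The lower VGF mean in C14R at day 18 rested on 1 library. C14R minus deletion was -0.24 on the log2 scale (SE 0.11, limma adjusted p = 0.442) and -0.07 without C14R replicate 1 of that day (adjusted p = 0.995). CHGB differed by at most 0.12 on the log2 scale between constructs at either day. PCSK2 had its lowest WT library of day 18 at 1.00 FPKM. Without an expression filter it was 0.19 higher in C14R than in WT at that day (SE 0.07, limma adjusted p = 0.369). It was 0.20 higher in deletion than in WT (SE 0.07, limma adjusted p = 0.368).

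The wider secretory pathway was examined through lists named for the roles of their genes. Of 57 genes of granule biogenesis, transport and release, 53 were tested, and in WT 42 rose and 7 fell, against 38.2% and 34% of all tested genes, with a median log2 change of 1.10. In C14R 41 rose and 5 fell (all genes 37.9% and 35%), with a median of 1.07, and in deletion libraries 42 rose and 4 fell (all genes 38.6% and 34.4%), with a median of 1.03. Of the 42 in WT, 2 (ATP2A3 and CALY) passed the filter only through their high day 18 libraries. With small RNA genes left out and rescaling, the WT counts were 44 and 4, where 7059 of all 13779 genes rose and 3227 fell. RAB27B, a small GTPase that docks granules, rose from 1.504 ± 0.163 to 41.3 ± 1.75 FPKM in WT (a change of 4.08 on the log2 scale, SE 0.10, limma adjusted p = 4.62e-16). PTPRN (IA-2), a transmembrane protein of the granule, rose from 8.20 ± 1.67 to 67.6 ± 3.96 FPKM (2.91). CALY averaged 0.821 ± 0.409 FPKM at day 0 and 11.99 ± 1.46 FPKM at day 18, given as values only for that reason. DBH, the granule enzyme that makes noradrenaline, rose from 64.04 ± 3.26 to 445 ± 31.6 FPKM (2.78). The same list held genes that fell. RPH3A (rabphilin), an effector of RAB3 and RAB27, fell from 18.1 ± 0.682 to 3.43 ± 0.205 FPKM (a change of -2.11 on the log2 scale, SE 0.07, limma adjusted p = 3.00e-14). SYTL2, TSSC1 (the table's symbol for EIPR1) and DOC2B had log2 changes of -0.79, -0.65 and -0.39 in WT.

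Other peptide processing enzymes changed in both directions. Of 19, 13 were tested, and in WT 6 rose and 5 fell, where 38.2% of all tested genes rose and 34% fell, with a median log2 change of -0.07. In C14R 6 rose and 5 fell (all genes 37.9% and 35%), and in deletion libraries 5 rose and 6 fell (all genes 38.6% and 34.4%), so these counts lie near the shares over all genes. With small RNA genes left out and rescaling, 8 rose and 2 fell in WT, where 7059 and 3227 of all 13779 genes did. Convertases of this list moved both ways in WT: PCSK7 and FURIN fell and PCSK6 rose. PCSK7 had 13.6 ± 0.779 FPKM at day 0 and 9.05 ± 0.601 at day 18 (log2 change -0.54, SE 0.10, limma adjusted p = 0.000124). FURIN had 5.64 ± 0.402 and then 3.90 ± 0.190 FPKM (-0.44, SE 0.09, limma adjusted p = 0.000238). MBTPS1 and QPCTL had log2 changes of -0.30 and -0.30, and both lost the threshold under that rescaling (limma adjusted p = 0.0578 and 0.208). QPCTL also lost it without any 1 of 4 WT libraries (replicates 2 and 3 of day 0, 1 and 2 of day 18), at adjusted p from 0.0649 to 0.0714. Among those that rose, PAM, which amidates peptide C termini in the granule, went from 43.3 ± 0.651 to 57.5 ± 1.60 FPKM (0.40, SE 0.04, limma adjusted p = 1.47e-07). The lysosomal protease CTSB went from 34.7 ± 1.45 to 66.4 ± 4.19 FPKM (0.92), and PCSK6 and PRCP had log2 changes of 0.52 and 0.51.

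Peptide precursors, the cargo, were few. Of 27 listed, 12 passed the filter, and in WT 6 rose and 2 fell, against 38.2% and 34% of all tested genes, with a median log2 change of 0.32. In C14R 6 rose and 2 fell (all genes 37.9% and 35%), and in deletion libraries 7 rose and 3 fell (all genes 38.6% and 34.4%). Among the 6 is CARTPT, which passed the filter only through its high day 18 libraries. NPY rose from 100.1 ± 3.48 to 502 ± 45 FPKM in WT (a change of 2.31 on the log2 scale, SE 0.07, limma adjusted p = 1.64e-14), and GAL (galanin) from 37.4 ± 1.22 to 296 ± 28.1 FPKM (2.95, SE 0.10, adjusted p = 7.43e-14). CARTPT averaged 0.0328 ± 0.0568 FPKM at day 0 and 12.5 ± 3.90 FPKM at day 18, a difference that its filtering favours and that is given as values only. NPB had a log2 change of 1.25. ADM (adrenomedullin) had 6.86 ± 0.650 and then 1.26 ± 0.333 FPKM (log2 change -1.81), and NMU had a log2 change of -0.99. NPY was the single gene of these 4 lists that passed the threshold between constructs. It was lower in C14R (91.0 FPKM) than in deletion libraries (124 FPKM) at day 0, by a log2 difference of -0.43 (SE 0.07, limma adjusted p = 0.0322). The libraries did not overlap, but the call was lost under 14 of 28 alternatives, among them each of the 6 that left out 1 of the libraries compared (adjusted p from 0.0652 to 0.254).

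Of 28 transcription regulators linked to neuroendocrine genes, 23 were tested, and in WT 10 rose and 5 fell, against 38.2% and 34% of all tested genes, with a median log2 change of 0.09. Of the 5, 1 passed the filter only through its day 0 libraries. With small RNA genes left out and rescaling, 14 rose and 4 fell, where 7059 and 3227 of all genes did. In C14R 10 rose and 7 fell as deposited (all genes 37.9% and 35%), and in deletion libraries 12 rose and 8 fell (all genes 38.6% and 34.4%). CREM, a cyclic AMP responsive factor, rose from 9.98 ± 0.292 to 27.9 ± 0.904 FPKM (a change of 1.39 on the log2 scale, SE 0.06, limma adjusted p = 9.71e-13), and ATF3, CREB5 and ATF2 had log2 changes of 1.18, 0.83 and 0.63. REST, the repressor that silences neuronal and granule genes outside neurons, went from 20.2 ± 0.0895 to 15.0 ± 0.928 FPKM (-0.40, SE 0.06, limma adjusted p = 5.98e-06). FOSL2 and INSM2 had log2 changes of -1.43 and -0.90.

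**Figure D4:**
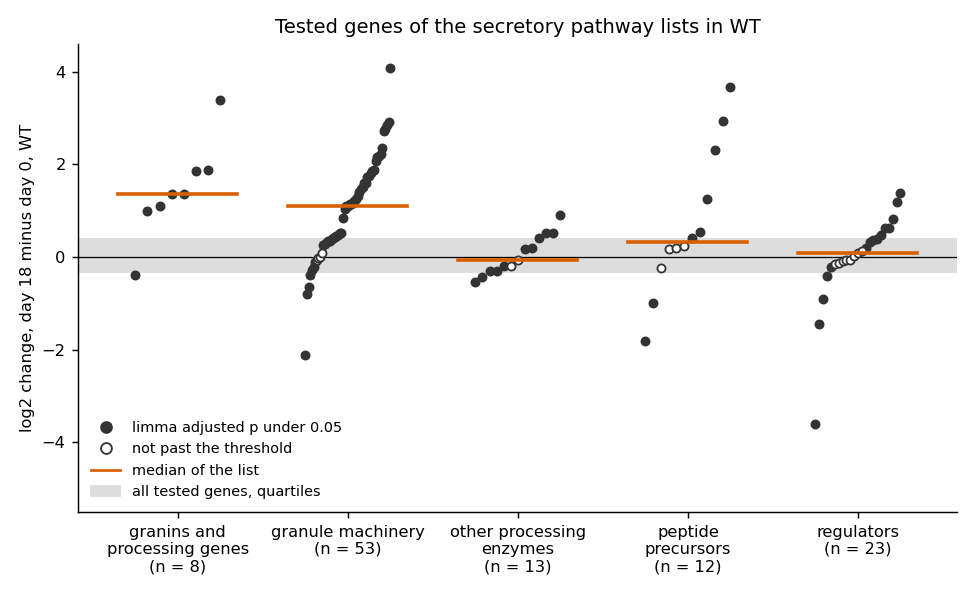
Log2 change from day 0 to day 18 in WT (vertical axis) of the tested genes in each list, sorted within the list, with filled points past the limma threshold and open points not. The orange bars are list medians and the grey band spans the quartiles of all tested genes (-0.35 to 0.41). The medians of the 8 granule genes (1.36) and of the granule machinery (1.10) lie above the band, and those of the other 3 lists (-0.07, 0.32 and 0.09) lie inside it.

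Promoter sequence is shown because the differentiation medium holds dibutyryl cyclic AMP, and the palindromic cyclic AMP response element, TGACGTCA, is a known feature of several granin promoters. Windows from 250 bases before to 50 bases after each annotated start (RefSeq, GRCh38.p14) were held for 8 of the 10 genes. CHGB and SCG2 were not among them. The palindrome was found in 3 of the 8, each in the stretch just before the start, and capitals mark it:
CHGA: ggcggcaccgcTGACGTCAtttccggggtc
VGF: tgaatgaacatTGACGTCAatggggcgggg
PCSK1: ccaggtagatcTGACGTCAagagatggctt
The stretches are chr14:92923085-92923114 on the plus strand for CHGA, chr7:101165630-101165659 on the minus strand for VGF and chr5:96433307-96433336 on the minus strand for PCSK1. Counted from the first transcribed base, the palindrome lies at -54 to -47 in CHGA, -79 to -72 in VGF and -77 to -70 in PCSK1. Over all 35116 such windows 1.85% hold it, and 2.25% of the 27305 genes with a window have it in at least 1. The shorter motif TGACG, searched on both strands and contained in the palindrome, is in 24.6% of windows and in 28.4% of genes. Apart from the 3 genes with the palindrome, SCG3, SCG5, PCSK2 and CPE hold it while PCSK1N does not. In SCG3 the shorter motif lies at -4 to 0 and so reaches into the transcribed part. The window of another annotated PCSK1 start holds neither motif. The 3 genes with the palindrome did not move alike: VGF and PCSK1 rose in all constructs, and CHGA had the changes given above. Of the 402 tested genes with the palindrome, 41.3% rose and 30.8% fell in WT (median log2 change 0.06). Of the 10152 tested genes with any such window, 38% rose and 34.8% fell (median 0.02). A match describes these letters only. GENCODE 29 starts its longest models of CHGA and PCSK1 upstream of the printed stretches, so the starts of the 2 annotations differ for these genes. It also starts CPE and SCG5 upstream of their TGACG stretches (CPE at chr4:165361194, with a stretch at chr4:165378775-165378804).

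Profiles over the 18 libraries were compared by the root-mean-square difference of log2(FPKM + 1), centred on each gene's own mean, as a description in which the difference between days dominates. Within the set, SCG5 and CPE were the most alike (0.0702), and CHGA and CHGB the least (1.82). Outside the set, the nearest tested gene to CHGB was NELL2 (0.0779), with mean FPKM of 11.97 at day 0 and 134 at day 18, followed by NTRK2, the BDNF receptor (0.109), and CADM3 (0.126). SCG2 was nearest to RGS9 (0.0723), DCLK1 (0.0736) and FAM102B (0.0802), and SCG3 to the neurofilament gene INA (0.0531), LEPR (0.0631) and GPRASP1 (0.0642). CPE was nearest to FDFT1 (0.055), and SCG5 to ZHX2 (0.0749). VGF was nearest to VWA5B2 (0.1), with mean FPKM of 0.241 at day 0 and 3.48 at day 18. The day 0 mean of VWA5B2 is below the filter and the pseudocount compresses its change, so that match is of the log2(FPKM + 1) scale only. PCSK1N was nearest to CDK5R2 (0.151). CHGA was nearest to CNTN1 (0.0931) and ICA1 (0.0989), whose log2 changes over all constructs were -0.25 and -0.06.

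Markers of other cell states also moved with day. The summed FPKM of 14 mesenchymal-type markers was 1246 to 1504 across day 0 libraries and 169 to 188 at day 18, and 13 and then 11 of them had a mean of at least 1. VIM, the most abundant, had 565 FPKM in WT at day 0 and 49.3 at day 18. The 9 Schwann or glial markers summed to 3.99 to 5.56 FPKM and then 9.42 to 11.5 FPKM, with FABP7 below 0.1 FPKM in every library and SOX10 between 0.111 and 0.477 FPKM. The 6 markers of kidney-derived packaging cells summed to at most 2.84 FPKM. The part of these shifts in the rise of the granule genes was not tested.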

How the data were processed

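RNA-seq of 18 SH-SY5Y libraries (3 per construct and day) was analysed from 1 table. Per the labels' protocols, TRIzol RNA was treated with DNase I, depleted of ribosomal RNA (Ribo-Zero) and made into NEBNext Ultra libraries. The authors deposited FPKM per gene symbol; the submitters' processing notes name TopHat2, STAR, Cufflinks 2.2.1 and hg38, with no roles. The use of strand and any scaling between libraries were not given in the sources used here. Column names matched sample titles, and 0 columns were left over.

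Values were analysed as log2(FPKM + 1), a pseudocount of 1, which understates changes of low genes. Genes with a mean of at least 1 FPKM (13785 of 26372) entered a fit of 6 group means with limma 3.58.1 (R 4.3.3, empirical Bayes with trend), with Benjamini-Hochberg adjustment within each comparison and a threshold of 0.05. Scripts were tested on simulated data. The members and lists were chosen with earlier results of these data known, and lists are described by counts and medians. All 10 genes were named, with ZNHIT3, up to 4 rises and 4 falls per list in WT (past the threshold, libraries of the days not overlapping), list genes past the threshold between constructs, and the 3 nearest profiles of a gene, of which fewer are printed for some. One such gene from the lists is not reported here. The convertases' neighbours are left out because the scale compresses their changes. Named markers were the most abundant or those near 0. Gene positions are from GENCODE 29 (GRCh38).

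Alternatives tried were median-of-ratios scaling, quantile normalization, rescaling without small RNA genes, a pseudocount of 0.1, a mean of at least 5 FPKM, no filter, a replicate block, no trend, array weights, only the libraries compared, a log2 change of at least 1, and each library left out. Depth is known only relative to the deepest library, so precision rests on the replicates.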

Additional observations from a re-analysis of the deposited data

How the results depend on the processing

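The rises of CHGB, SCG2, SCG3, SCG5, VGF, PCSK1N and CPE kept their direction and their side of the threshold in all 3 constructs under each of 28 alternatives. These do not include the requirement of a log2 change of at least 1. SCG5 in WT was at 1.005 as deposited and at 0.971 in its lowest alternative, while the other rises named here stayed above 1. PCSK1, at 0.71 to 0.76 without a filter, was below that size. The count of granule genes past the threshold between constructs changed once, to 1 for C14R against deletion at day 0 with array weights (SCG2, log2 difference -0.20, limma adjusted p = 0.0466). Of all 13785 genes, 41 were higher and 54 lower in that comparison with array weights. In WT, CHGA ranged from -0.45 to -0.18 on the log2 scale over the alternatives (limma adjusted p up to 0.0429). With small RNA genes left out and rescaling, the other processing enzymes gave 2 lower in WT, 2 in C14R and 2 in the deletion group. In deletion libraries 8 of them were higher, and 4 genes of the granule machinery were lower in WT. Of all 13779 genes under that scaling, 3227, 3440 and 3167 were lower in WT, C14R and deletion libraries, and 7184 were higher in deletion libraries. With a mean of at least 5 FPKM, where fewer genes are tested, the other processing enzymes gave 3 lower in WT and 3 in C14R. The peptide precursors gave 1 lower in WT, 1 in C14R and 1 in the deletion group, with 4 higher in deletion libraries. Of all 10005 genes under that filter, 3698, 3782 and 3764 were lower in WT, C14R and deletion libraries, and 3865 were higher in deletion libraries. Leaving out single libraries moved the lower count of the other processing enzymes in deletion libraries to between 3 (without deletion replicate 3 of day 18) and 6. ZNHIT3 in deletion libraries, with no call as deposited, rose by 0.22 with quantile normalization (limma adjusted p = 0.0146) and by 0.21 with the rescaling (adjusted p = 0.0057). The cause of these shifts was not tested.

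Same-numbered libraries did not deviate together (Pearson's r from -0.363 to 0.168 across genes, median -0.01). A lack of shared deviation cannot show whether the numbers pair the samples. In the deletion group the label goes with the replicate number at both days. With a replicate block, 8, 8 and 7 granule genes passed the threshold for day 18 against day 0 in WT, C14R and deletion libraries, as without it. The WT and C14R counts include the fall of CHGA. Of all 13785 genes, 5259 rose and 4673 fell in WT with that block. The counts were 5182 and 4789 in C14R, and 5294 and 4735 in deletion libraries. Depth limits the convertases at day 0, where a library holds few of their fragments.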
